A study of Mus musculus with 10 samples.

Results

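The genes described here encode 10 subunits of voltage-gated calcium channels, chosen by name from the 22198 genes of the deposited table: Cacna1a, Cacna1b, Cacna1c, Cacna1d, Cacna1e, Cacna1g, Cacna1h, Cacna1i, Cacna2d1 and Cacnb4. RNA of brain cortex from 6-month-old mice had been sequenced in 10 libraries, and all of them were used. The 5 libraries titled ctrl have the genotype Mic19 WT, and the 5 titled BKO have the genotype Mic19 knockout; the mice had received no treatment. Mic19, whose gene is Chchd3, is a subunit of the complex that shapes the cristae of mitochondria. The labels do not expand BKO and name no Cre driver, strain or sex. Nor do they say whether a library is 1 mouse, so the p-values stand for the spread among libraries, which may be technical.

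A voltage-gated calcium channel opens when the membrane depolarizes and lets calcium into the cell, where it triggers transmitter release, dendritic spikes and gene expression. The pore is a single large alpha1 protein, and it sets the channel type. The Cav1 (L-type) and Cav2 (P/Q-, N- and R-type) pores open at strong depolarization and work with a cytosolic beta subunit and an extracellular alpha2delta subunit. The Cav3 (T-type) pores open near the resting potential and do not need these partners. In mice, mutations of Cacna1a (tottering) and Cacnb4 (lethargic) give absence seizures and ataxia, and the study's title names epilepsy among its subjects.

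Levels are in FPKM, the fragments of a gene relative to its transcript length in kilobases and to the library's total. Comparisons of levels between genes and between libraries rest on the authors' lengths and totals, whose formula is not given in the sources used here. All 10 subunits passed the filter on low values (0.5 FPKM or more in 5 or more libraries). The difference between the genotypes is given as the log2 fold change of FPKM + 0.5, BKO minus ctrl, with limma's SE and 95% interval.

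Neuronal markers were high in every library, as the label of cortex implies, and markers of other cell types differed between libraries. Markers of cortical excitatory neurons (10 genes) summed to 883 to 1015 FPKM in ctrl and 813 to 980 FPKM in BKO. Those of interneurons (8 genes) summed to 1252 to 1365 FPKM and 1200 to 1378 FPKM. In both lists 0 genes passed the test given in the next paragraph (limma), against 5.79% of all genes tested. In both, 0 reached an unadjusted p under 0.05, against 17.5% of all genes tested. All 10 oligodendrocyte markers passed that test as lower in BKO, against 2.46% of all genes tested. They summed to 2949 to 3521 FPKM in ctrl and to 995 to 1349 FPKM in BKO. Striatal markers were present as well, at 737 to 892 FPKM in ctrl and 764 to 816 FPKM in BKO. Thalamic markers stood at 70.5 to 143 FPKM in ctrl and 76.9 to 153 FPKM in BKO. None of the 8 genes of either list was called. An unadjusted limma p under 0.05 was reached by 0 striatal genes and 1 thalamic gene, against 17.5% of all genes tested. Choroid plexus RNA set the libraries apart across both genotypes: its 9 markers summed to 44.6 to 94.8 FPKM in ctrl 2, ctrl 4, BKO 3 and BKO 4 and to 1120 to 2760 FPKM in the other 6. No marker gene was at 0 in all libraries. Fits in the libraries low or high in choroid plexus RNA, and with its level as a covariate, are given below. The part of the other cell types and regions in the differences below was not tested.

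Of the 10 subunits, 0 changed between the genotypes (limma, Benjamini-Hochberg adjusted p under 0.05 over all 14447 genes tested), where 5.79% of all genes tested did, 3.32% being higher and 2.46% lower in BKO. At an unadjusted limma p under 0.05 there was 1 of 10, Cacnb4, against 17.5% of all genes tested. For none of the 10 did the 5 BKO libraries lie wholly above or below the 5 ctrl libraries, which was so for 6.71% of all genes tested. The share of 1 in 10 is not above its background. In bulk tissue, fewer cells of a type and less RNA per cell cannot be told apart. The log2 fold changes ran from -0.24 for Cacnb4 to 0.15 for Cacna1e, 5 being positive and 5 negative, and their median was -0.0033 against -5.25e-05 over all genes tested. The 95% intervals of the 10 subunits reached from -0.41 (Cacnb4) to 0.32 (Cacna1e), so a change of 1 on the log2 scale lay outside every one of them. In the 4 libraries low in choroid plexus RNA, in the 6 high ones and with that level as a covariate, 0 of 10 subunits passed. Of the 14447 genes tested, 251, 393 and 783 passed there, against 836 in the main fit. The subsets hold fewer libraries, so 0 of 10 says little in them. The signs of Cacna1d (-0.05) and Cacna1h (-0.02) turned in the 4 libraries and that of Cacna1b (0.0037) in the 6. Directions follow the labels of the libraries, since Chchd3, the targeted gene, was not lower in those labelled BKO: its values there were 94.2, 89.4, 88.3, 81.5 and 87.7 FPKM, against 73.1, 77.3, 80.6, 79.0 and 82.2 FPKM in ctrl. The means were 78.4 ± 3.53 FPKM for ctrl and 88.2 ± 4.54 FPKM for BKO (SD, n = 5 each; 2-sided exact permutation p = 0.0159; limma adjusted p = 0.0528). The adjusted limma p for Chchd3 was 0.0226 after rescaling to an equal sum, 0.0240 after quantile normalization, and 0.0288 (without BKO 4) to 0.127 (without ctrl 1) with 1 library left out. A whole-gene value does not show whether part of a gene was removed.

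**Figure D1:**
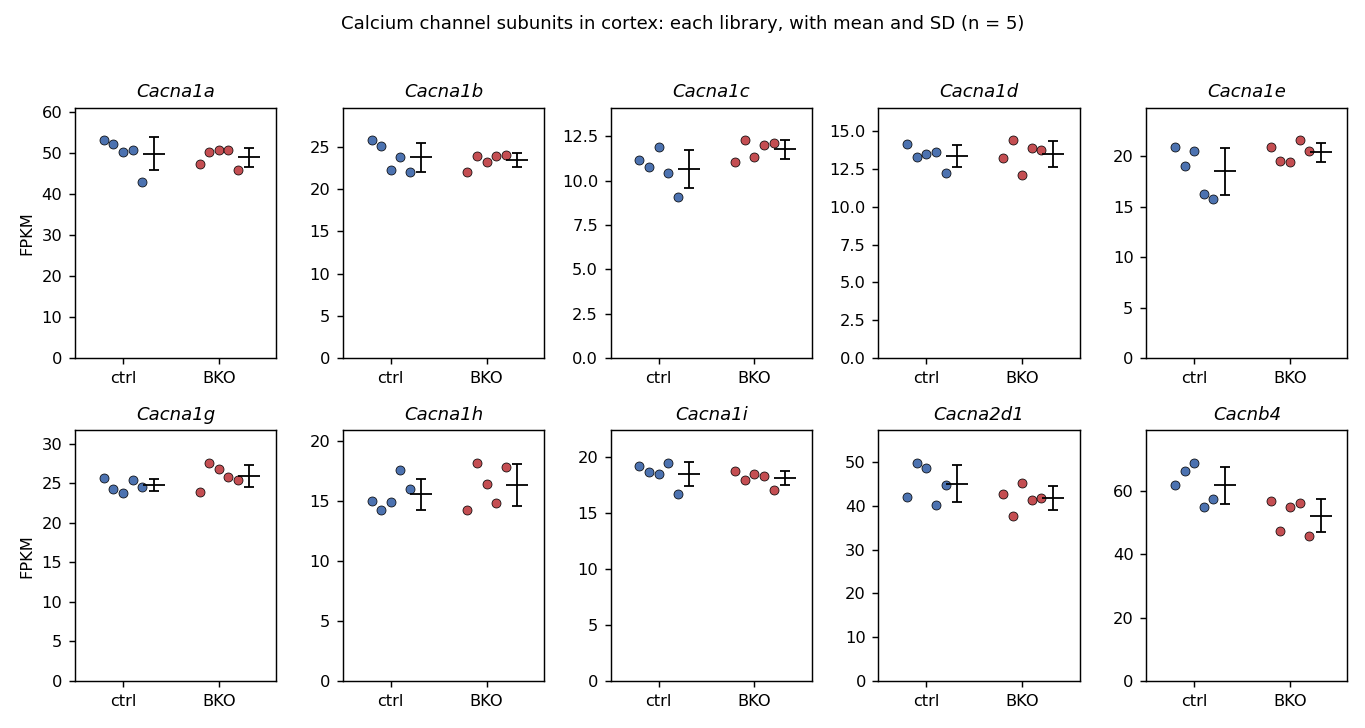
FPKM of the 10 subunits in each ctrl (blue) and BKO (red) library, on axes that start at 0; points run from library 1 to 5 and the black bar is the mean with its SD (n = 5). The groups overlap in every panel, and Cacnb4 shows the widest offset, from a mean of 61.8 in ctrl to 52.2 in BKO.

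Cacna1a encodes the P/Q-type pore, which carries most of the calcium that triggers fast transmitter release at central synapses. Its level in ctrl libraries 1 to 5 was 53.0, 52.1, 50.1, 50.7 and 43.0 FPKM, and in BKO libraries 1 to 5 it was 47.2, 50.1, 50.7, 50.6 and 45.8 FPKM. All 5 BKO libraries lay within the ctrl range, whose low end was ctrl 5 alone. This gave a log2 fold change of -0.02 (SE 0.0587, 95% interval -0.15 to 0.10, limma adjusted p = 0.889). It was -0.08 without ctrl 5 (limma adjusted p = 0.443) and -0.00024 without ctrl 1, and it did not pass with any library left out.

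Cacna1b encodes the N-type pore, which shares the task of transmitter release at many terminals. It stood at 25.8, 25.2, 22.2, 23.8 and 22.0 FPKM in ctrl libraries 1 to 5 and at 22.1, 23.9, 23.3, 24.0 and 24.1 FPKM in BKO libraries 1 to 5. The BKO values again all fell inside the ctrl range. BKO minus ctrl was -0.02 on the log2 scale (SE 0.0578, 95% interval -0.14 to 0.11, limma adjusted p = 0.918), and its sign changed with the rescaling to an equal sum per library (0.0036).

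Cacna1e encodes the R-type pore, found in dendrites and spines as well as terminals. Its ctrl libraries 1 to 5 had 20.9, 19.0, 20.5, 16.3 and 15.8 FPKM, and its BKO libraries 1 to 5 had 20.9, 19.5, 19.4, 21.6 and 20.5 FPKM. The ctrl libraries were spread more widely, ctrl 2, ctrl 4 and ctrl 5 lying below every BKO library and the other ctrl libraries among them. BKO minus ctrl was 0.15 on the log2 scale (SE 0.0800, 95% interval -0.03 to 0.32, limma adjusted p = 0.387). Leaving out ctrl 5 gave 0.09, leaving out ctrl 1 gave 0.19, and the adjusted p from limma lay between 0.238 and 0.579 with any library left out.

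Cacna1c and Cacna1d encode the L-type pores of the brain, which sit on cell bodies and dendrites and couple activity to gene expression. Cacna1c stood at 11.2, 10.8, 11.9, 10.4 and 9.06 FPKM in ctrl libraries 1 to 5 and at 11.0, 12.3, 11.3, 12.0 and 12.1 FPKM in BKO libraries 1 to 5. BKO 2, BKO 4 and BKO 5 exceeded all of ctrl, while the other two were inside the ctrl range. For Cacna1c the log2 fold change was 0.14 (SE 0.0755, 95% interval -0.02 to 0.30, limma adjusted p = 0.377); without ctrl 5, the lowest library, it was 0.08. Cacna1d stood at 14.1, 13.3, 13.5, 13.6 and 12.2 FPKM in ctrl libraries 1 to 5 and at 13.2, 14.4, 12.1, 13.9 and 13.7 FPKM in BKO libraries 1 to 5. Its groups covered almost the same range, with a log2 fold change of 0.01 (SE 0.0653, 95% interval -0.13 to 0.15, limma adjusted p = 0.959) whose sign turned with library quality weights (-0.0064).

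The T-type pores drive burst firing, and in rodent models of absence epilepsy their currents in the thalamus and cortex have been linked to spike-and-wave discharges. Cacna1g stood at 25.6, 24.3, 23.8, 25.4 and 24.6 FPKM in ctrl libraries 1 to 5 and at 24.0, 27.6, 26.9, 25.9 and 25.4 FPKM in BKO libraries 1 to 5. BKO 2, BKO 3 and BKO 4 exceeded all of ctrl, and BKO 1 was near the bottom of the ctrl range. For Cacna1g the log2 fold change was 0.07 (SE 0.0519, 95% interval -0.05 to 0.18, limma adjusted p = 0.582; 0.04 without BKO 2), with the smallest SE of the 10 subunits. Cacna1h stood at 15.0, 14.2, 14.9, 17.6 and 15.9 FPKM in ctrl libraries 1 to 5 and at 14.2, 18.1, 16.4, 14.8 and 17.8 FPKM in BKO libraries 1 to 5. The 2 highest libraries were BKO 2 and BKO 5, and the rest of the groups lay over each other. For Cacna1h the difference was 0.06 on the log2 scale (SE 0.0805, 95% interval -0.11 to 0.24, limma adjusted p = 0.757), and it ran from 0.02 without BKO 2 to 0.11 without BKO 1. Cacna1i stood at 19.2, 18.6, 18.5, 19.4 and 16.6 FPKM in ctrl libraries 1 to 5 and at 18.7, 17.9, 18.5, 18.2 and 17.1 FPKM in BKO libraries 1 to 5. All 5 BKO libraries of Cacna1i lay within the ctrl range, and the log2 fold change was -0.03 (SE 0.0577, 95% interval -0.15 to 0.10, limma adjusted p = 0.863). Leaving out 1 library moved it between -0.06 (without ctrl 5) and -0.0076 (without BKO 5).

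Cacnb4 encodes a beta subunit, which binds the pore inside the cell, carries it to the membrane and tunes its gating. It stood at 61.8, 66.2, 68.8, 54.8 and 57.3 FPKM in ctrl libraries 1 to 5 and at 56.8, 47.4, 55.0, 56.0 and 45.7 FPKM in BKO libraries 1 to 5. All BKO libraries were below the ctrl median, BKO 2 and BKO 5 were below every ctrl library, and the others overlapped with ctrl 4 and ctrl 5. The means were 61.8 ± 5.88 FPKM for ctrl and 52.2 ± 5.23 FPKM for BKO (SD, n = 5 each). The log2 fold change was -0.24 (SE 0.0763, 95% interval -0.41 to -0.08), with an unadjusted limma p of 0.00684 and an adjusted p of 0.0887, above the threshold. Without ctrl 4 it passed (-0.28, limma adjusted p = 0.0488); with any other library left out it did not (-0.27 to -0.20, limma adjusted p = 0.0723 to 0.215). In the 4 libraries low in choroid plexus RNA the log2 fold change of Cacnb4 was -0.12 (SE 0.0983, limma adjusted p = 0.726), and in the 6 high ones it was -0.33 (SE 0.0953, limma adjusted p = 0.144). Whether these differ from each other was not tested. With the choroid plexus level as a covariate the estimate was -0.23 (SE 0.0787, limma adjusted p = 0.119). BKO 2 had the lowest sum of excitatory neuron markers of all libraries (813 FPKM), while that of BKO 5 (917 FPKM) lay within the ctrl range. The part of excitatory neuron RNA in the Cacnb4 difference was not tested.

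Cacna2d1 encodes an alpha2delta subunit, the binding site of gabapentin and pregabalin, which raises the number of channels at the membrane and at release sites. It stood at 42.0, 49.8, 48.7, 40.3 and 44.7 FPKM in ctrl libraries 1 to 5 and at 42.7, 37.6, 45.2, 41.3 and 41.8 FPKM in BKO libraries 1 to 5. BKO 2 was lower than all of ctrl, and the other 4 were within the ctrl range. The log2 fold change was -0.11 (SE 0.0662, 95% interval -0.25 to 0.03, limma adjusted p = 0.445), and it was -0.07 without ctrl 2 or without BKO 2.

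**Figure D2:**
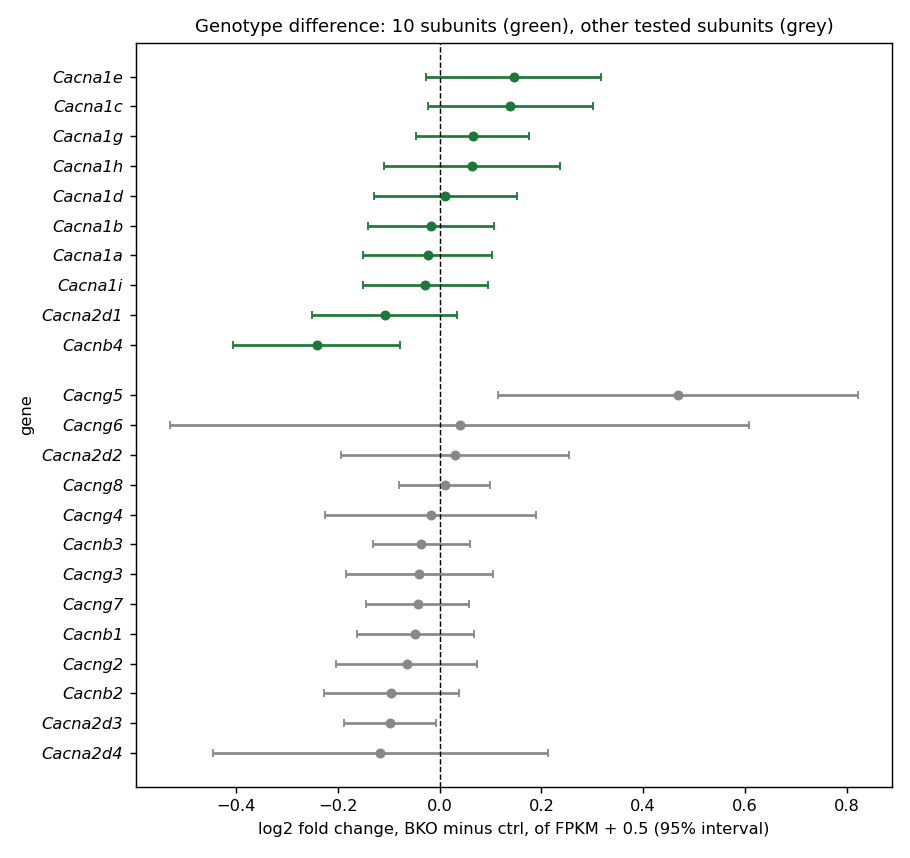
Log2 fold change (BKO minus ctrl, of FPKM + 0.5) with its 95% interval for the 10 subunits (green) and for the other tested subunits of the family (grey), ordered by size within each set. Of the green intervals 9 hold 0, and that of Cacnb4 runs from -0.41 to -0.08; the widest grey interval is that of Cacng6.

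In order of level in ctrl, Cacnb4 came first (61.8 FPKM), followed by Cacna1a (49.8 FPKM), Cacna2d1 (45.1 FPKM), Cacna1g (24.8 FPKM), Cacna1b (23.8 FPKM), Cacna1e (18.5 FPKM), Cacna1i (18.5 FPKM), Cacna1h (15.5 FPKM), Cacna1d (13.3 FPKM) and Cacna1c (10.7 FPKM). The order of the means was the same in BKO. In ctrl the ranges overlapped between Cacna1a and Cacna2d1, between Cacna1g and Cacna1b, between Cacna1e and Cacna1i, and between Cacna1i and Cacna1h. Within single ctrl libraries, Cacna1a exceeded Cacna2d1 in 4 of 5, Cacna1g exceeded Cacna1b in 3 of 5, Cacna1e exceeded Cacna1i in 3 of 5, and Cacna1i exceeded Cacna1h in 5 of 5. In BKO the ranges of Cacnb4 and Cacna1a overlapped, and Cacnb4 exceeded Cacna1a in 3 of 5 libraries, against 5 of 5 in ctrl. The ranges of Cacna1a and Cacna2d1, and those of Cacna1e and Cacna1i, did not overlap in BKO, while those of Cacna1h and Cacna1d and of Cacna1d and Cacna1c did. Among all genes tested, the ctrl means lay between percentile 38.7 (Cacna1c) and percentile 82.7 (Cacnb4).

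Summed over the 8 pore subunits, the level was 175 ± 9.47 FPKM for ctrl and 178 ± 4.73 FPKM for BKO (SD, n = 5 each). Cav2 pores made up 52.6 ± 1.59% of that sum in ctrl and 52.0 ± 0.949% in BKO. Cav3 pores made up 33.7 ± 1.76% in ctrl and 33.8 ± 0.905% in BKO, and Cav1 pores 13.7 ± 0.434% and 14.1 ± 0.598%. Cacna1a alone held 25.9% to 29.4% in every library. Within the beta family, Cacnb4 was 14.9% to 18.8% of the summed FPKM of the 4 beta genes in ctrl and 13.0% to 16.3% in BKO, and the groups overlapped. Cacna2d1 was 31.6% to 39.0% of the summed alpha2delta FPKM in ctrl and 31.0% to 36.7% in BKO. These shares are descriptions with no test.

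**Figure D3:**
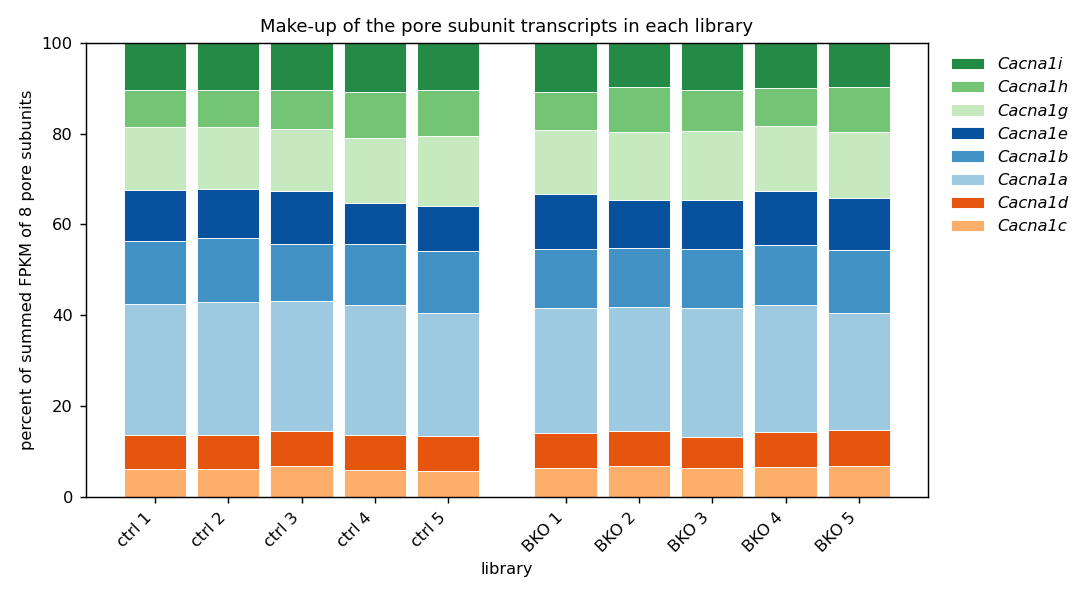
Share of each pore subunit in the summed FPKM of the 8 pore subunits, in percent, for each library; orange marks Cav1, blue Cav2 and green Cav3 genes. Cav2 genes fill between 50.7% and 54.2% of every bar.

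Between libraries of the same group the subunits did not move as 1 block. In the 45 pairs of subunits, the Pearson r of their deviations from the group means over 10 libraries ranged from -0.89 to 0.83 with a median of 0.29, and 30 pairs were above 0. These values share libraries and depth and are given as a description. The highest was between the P/Q-type pore Cacna1a and the T-type pore Cacna1i (0.83), and the auxiliary genes Cacnb4 and Cacna2d1 went together (0.70). The lowest was between Cacnb4 and Cacna1h (-0.89): BKO 2 and BKO 5, the lowest libraries for Cacnb4, were the highest for Cacna1h. Of the 10 subunits, 6 were lowest within ctrl in ctrl 5, the pore subunits Cacna1a, Cacna1b, Cacna1c, Cacna1d, Cacna1e and Cacna1i. The share of all genes lowest in ctrl 5 was not taken, so this is no trait of the subunits. Within ctrl, ctrl 5 had the lowest sum of excitatory neuron markers (883 FPKM). It had the highest sums of interneuron (1365 FPKM), oligodendrocyte (3521 FPKM), astrocyte (1944 FPKM) and thalamic markers (143 FPKM). Endothelial (75.8 FPKM) and mural cell markers (107 FPKM) had their lowest sums of ctrl there as well. The part of these cell types and of thalamic RNA in the levels of ctrl 5 was not tested. The genes whose levels over the 10 libraries were most like that of Cacnb4, which had both the smallest p and the highest mean, were Tmeff1 (r = 0.95), Prepl (r = 0.95) and Zdhhc17 (r = 0.95). With the group means removed, on the same 10 libraries, their r was 0.91, 0.93 and 0.92. The 3 were picked for the highest r among the genes tested, so these values are high by selection. None of the 3 passed (limma adjusted p = 0.0896, 0.141 and 0.288).

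**Figure D4:**
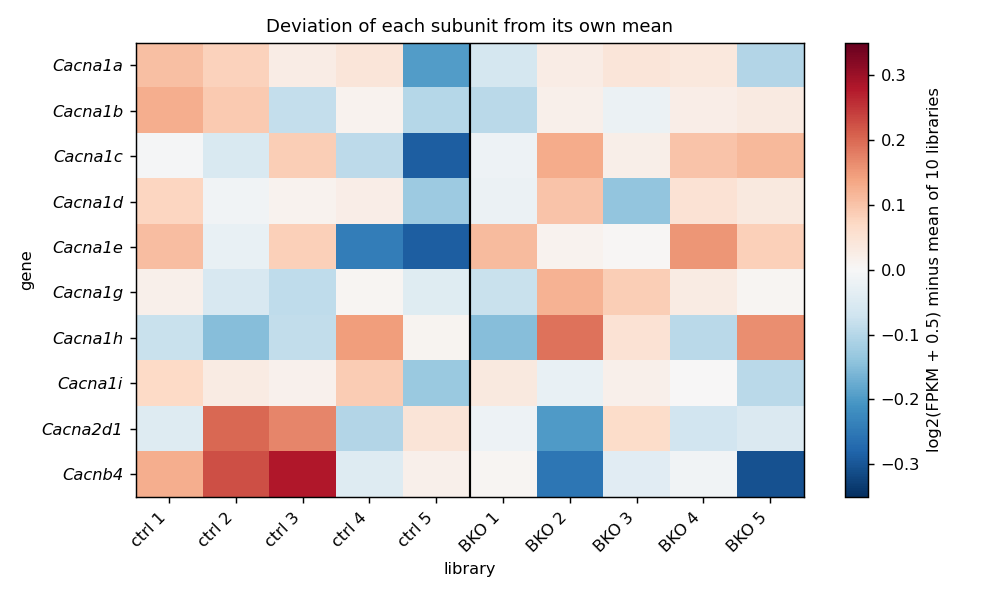
Log2(FPKM + 0.5) of each subunit in each library minus its mean over the 10 libraries; red is higher, blue lower, and the black line parts ctrl from BKO. Ctrl 5 is blue for most pore subunits, and Cacnb4 is red in ctrl 1 to 3 and blue in BKO 2 and BKO 5.

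Of the other 8 pore, alpha2delta and beta genes 6 passed the filter and none changed (limma). Among these 6, 1 was at an unadjusted limma p under 0.05, Cacna2d3, against 17.5% of all genes tested. The median log2 fold change of the 6 was -0.07. Cacnb3, the beta subunit with the highest level, averaged 201 ± 12.0 FPKM for ctrl and 195 ± 5.70 FPKM for BKO (SD, n = 5 each; log2 fold change -0.04, SE 0.0446, limma adjusted p = 0.751). Cacnb1 had a log2 fold change of -0.05 (SE 0.0534, limma adjusted p = 0.720) and Cacna2d3, an alpha2delta subunit, one of -0.10 (SE 0.0424, limma adjusted p = 0.246). Cacna1s and Cacna1f, the L-type pores of skeletal muscle and retina, lay below the filter, at 0.16 to 0.53 FPKM and 0.17 to 0.31 FPKM. Of the 8 gamma genes, several of which encode AMPA receptor partners, 7 passed the filter and none changed (limma). An unadjusted limma p under 0.05 was reached by 1 of these 7, against 17.5% of all genes tested. Cacng7 and Cacng3 had the highest levels and log2 fold changes of -0.04 each (SE 0.0474 with a limma adjusted p of 0.711, and SE 0.0673 with one of 0.827). The gamma gene at an unadjusted p under 0.05, named after its values were seen, was Cacng5. It went from 4.72 ± 1.44 FPKM to 6.56 ± 0.924 FPKM (SD, n = 5 each; log2 fold change 0.47, SE 0.165, limma adjusted p = 0.133), and it passed without ctrl 5 (0.60, limma adjusted p = 0.0304).

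Of 19 partners and regulators of the channels, 1 rose and none fell, against 3.32% higher and 2.46% lower among all genes tested. An unadjusted limma p under 0.05 was reached by 5 of the 19, against 17.5% of all genes tested, and the median log2 fold change was -0.04. The gene that rose was Cachd1, a relative of the alpha2delta subunits that can modulate T-type channels. It stood at 5.45, 5.42, 4.89, 4.58 and 5.14 FPKM in ctrl libraries 1 to 5 and at 6.47, 8.18, 6.15, 5.74 and 6.92 FPKM in BKO libraries 1 to 5. The groups did not overlap, and BKO 2 was the highest. The log2 fold change of Cachd1 was 0.36 (SE 0.0980, limma adjusted p = 0.0480). The call sat at the threshold: it was lost in 9 of the 10 fits with 1 library left out (limma adjusted p = 0.0597 to 0.111) and held without BKO 4 (limma adjusted p = 0.0349). It was also lost without the filter (limma adjusted p = 0.0874), after median-of-ratios rescaling (0.0504), after quantile normalization (0.0769), with library quality weights (0.0531), and in the 4 libraries low in choroid plexus RNA (0.663), the 6 high ones (0.112) and the fit with that covariate (0.0604). Calm2 and Calm3 encode calmodulin, the calcium sensor bound to Cav1 and Cav2 pores, and did not pass. Calm2 had a log2 fold change of -0.10 (SE 0.0526, limma adjusted p = 0.387), which turned to 0.07 with quantile normalization, and Calm3 one of -0.10 (SE 0.0451, limma adjusted p = 0.251).

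Of 10 calcium-dependent kinase and phosphatase genes none changed (limma), and 5 had an unadjusted p under 0.05, which 17.5% of all genes tested had. Without rescaling all 10 log2 fold changes were negative, from -0.16 to -0.04, with a median of -0.09. Among them, Ppp3ca and Ppp3r1, the catalytic and regulatory subunits of calcineurin, had log2 fold changes of -0.16 each (SE 0.0506 with a limma adjusted p of 0.0986, and SE 0.0502 with one of 0.0819). Ppp3r1 passed without BKO 1 (-0.20, limma adjusted p = 0.0305). Camk2a, the most abundant synaptic kinase of this list, was at -0.05 (SE 0.0517, limma adjusted p = 0.695), and its sign turned with quantile normalization (0.0048).

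Of 21 tested genes of calcium stores and clearance, 1 rose and none fell, where 3.32% of all genes tested were higher and 2.46% lower. At an unadjusted limma p under 0.05 there were 2 of 21, against 17.5% of all genes tested, and the median log2 fold change was -0.05. The gene that rose was Itpr2, the IP3 receptor that releases stored calcium in astrocytes. It stood at 3.24, 2.50, 2.53, 2.54 and 2.73 FPKM in ctrl libraries 1 to 5 and at 4.23, 4.01, 3.88, 4.03 and 3.69 FPKM in BKO libraries 1 to 5. Every BKO library was above every ctrl library, and the log2 fold change of Itpr2 was 0.48 (SE 0.0985, limma adjusted p = 0.00744). It passed with each library left out in turn (limma adjusted p = 0.00408 to 0.0245). With the choroid plexus level as a covariate it passed too (0.47, limma adjusted p = 0.0122). It did not pass in the 4 libraries low in choroid plexus RNA (0.56, limma adjusted p = 0.252) or the 6 high ones (0.43, limma adjusted p = 0.202). These subsets hold fewer libraries, and fewer of all genes tested passed in them (251 and 393, against 836). Beside Itpr2, 3 of 8 astrocyte markers rose (against 3.32% of all genes tested) and none fell. Those that rose, named after their values were seen, were Aldh1l1 (log2 fold change 0.51), Slc1a3 (0.19) and Aqp4 (0.64). The 8 summed to 1727 to 1944 FPKM in ctrl and 1841 to 1986 FPKM in BKO. The highest of the 8, Aldoc, averaged 1075 FPKM in ctrl and 1051 FPKM in BKO, so it weighs most in these sums. None of 7 endothelial, 8 microglial and 8 mural cell markers passed. Log2 fold changes were positive for 7, 7 and 4 of them, with medians of 0.21, 0.075 and -0.0012. An unadjusted limma p under 0.05 was reached by 2, 3 and 1 of them, against 17.5% of all genes tested. The part of these cell types in the Itpr2 difference was not tested. Atp2a2 and Atp2b1, calcium pumps of the endoplasmic reticulum and the plasma membrane, had log2 fold changes of 0.03 (SE 0.0391, with a limma adjusted p of 0.763) and -0.07 (SE 0.0531, with one of 0.568). Of 8 genes of mitochondrial calcium transport, none changed (limma), with 1 at an unadjusted p under 0.05, against 17.5% of all genes tested. Smdt1, a subunit of the uniporter, was at 0.04 (SE 0.0563, limma adjusted p = 0.797) and Micu3, a regulator of the uniporter in neurons, at -0.16 (SE 0.0494, limma adjusted p = 0.0771). Micu3 passed without ctrl 1 (-0.19, limma adjusted p = 0.0388). Of 5 calcium-activated potassium channel genes 0 changed (limma), against 5.79% of all genes tested, and 0 reached an unadjusted p under 0.05, against 17.5%. In a list of 5 genes these counts of 0 say little.

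**Figure D5:**
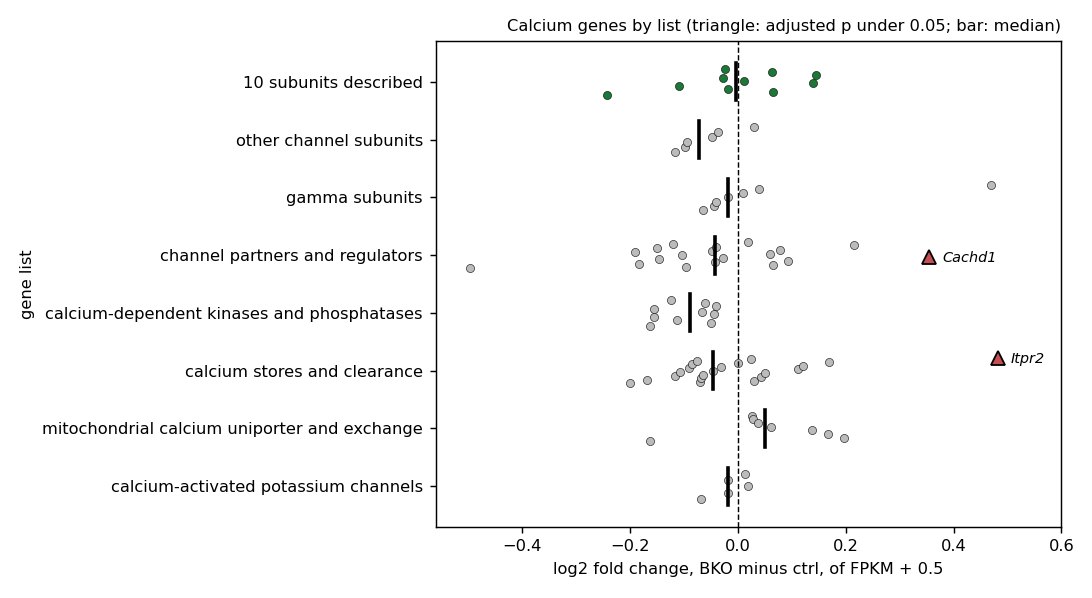
Log2 fold change (BKO minus ctrl, of FPKM + 0.5) of each tested gene, by list; black bars are list medians and red triangles are genes with an adjusted p under 0.05. Cachd1 and Itpr2 are the 2 triangles, and the list medians lie between -0.09 and 0.05.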

How the data were processed

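The authors deposited FPKM values of 22198 genes for each library, rounded to 2 decimals; STAR, HTSeq and mm39 were used, per the submitters' processing notes, and the FPKM formula is not given in the sources used here. No read totals were used, so no counting intervals are given. Relative depth, approximately 0.834 to 1.29, came from the steps between low values. The reference used a different build, so positions are left out.

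Values were fitted as log2(FPKM + 0.5), which understates changes of low genes, with limma 3.58.1 in R 4.3.3 (trended eBayes, 2-sided). The fit was tested on simulated data. Python 3.11.15 and scipy 1.17.1 gave the other values.

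Members and lists were chosen with earlier results of these data known. Named were the 10 members, Chchd3, other listed calcium genes with an adjusted p under 0.05 and, of the rest, up to 3 per list with the highest mean, and the 3 genes most like the member of smallest p or highest mean; a few genes of this rule are withheld for evaluation and not reported here. Alternatives changed the pseudocount (0.1 or 1), the filter (none or 2 FPKM), the scaling, the weights, the block or the libraries; those on choroid plexus RNA were chosen after seeing the data.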

Additional observations from a re-analysis of the deposited data

Results flagged for a closer look

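In 56 groups of 5 libraries, covering the 10 subunits and 18 other named genes in both genotypes, 1 had a library far from the other 4, with a gap of more than 0.71 of the group's range; chance gives about 1 in 20 groups. Cacna1a stood at 43.0 FPKM in ctrl 5, the lowest of the ctrl libraries, with a gap of 0.712 of the range.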

How the results depend on the processing

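The count of members that rose was 0 in every setting, and that of members that fell was 0 except with libraries left out, where it ran from 0 to 1 (Cacnb4 without ctrl 4). The 836 genes changed became 651 to 852 with 1 library left out, 702 to 905 in the other planned settings, 251 in the 4 libraries low in choroid plexus markers and 393 in the 6 high ones. Of the calcium lists 2 genes rose; this was 1 to 2 with 1 library left out, 1 without a filter, with median-of-ratios rescaling, quantile normalization, the replicate block, library quality weights and the choroid plexus covariate, and 0 in the subsets of 4 and of 6 libraries, which hold fewer samples. Genes of these lists that fell numbered 0, and 0 to 2 with 1 library left out. Over all genes tested, libraries with the same replicate number did not deviate together (r from -0.169 to 0.0855, own number best for 1 of 5). No pairing by number showed in this check, which cannot exclude a weaker one. The replicate block gave 702 genes and 0 members. With it the limma adjusted p was 0.0882 for Cacnb4, 0.0578 for Cachd1 and 0.118 for Chchd3.

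Signs turned for 10 genes that did not pass, and the cause was not tested. With equal-sum rescaling the log2 fold change of Cacna1b was 0.0036, with library quality weights that of Cacna1d was -0.0064, and with quantile normalization that of Calm2 was 0.072 and that of Camk2a 0.0048. In the 4 low libraries Cacna1d was -0.049 and Cacna1h -0.021. In the 6 high libraries Cacna1b was 0.0037, Cacnb3 0.035, Cacnb1 0.043, Cacng7 0.017, Cacng3 0.038 and Smdt1 -0.074. With 1 library left out Cacna1b ran from -0.045 to 0.012, Cacna1d from -0.019 to 0.047 and Cacng3 from -0.11 to 0.0093. The BKO minus ctrl difference in share of pore FPKM ran from 0.30 to 0.67 percentage points for Cav1, -1.06 to -0.18 for Cav2 and -0.19 to 0.73 for Cav3.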
